A study of Mus musculus with 8 samples.

Results

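The genes described here encode acute phase proteins that are known to be made in the lung as well as in the liver: Saa1, Saa2, Saa3, Lcn2, Hp, Orm1, Orm2 and Ptx3. Of these 8 genes, 7 are among the 18820 that the arrays could read by measurements assigned to that gene alone. Each gene was read from a probe set (the array's unit of measurement for a transcript) that the gene table assigns to its symbol alone, and where a gene had more than 1 such probe set the one with the highest mean over the 8 arrays was to be taken. Rows were thus to be chosen by the mean level over the 8 arrays, the only measured value the choice of rows used, and it decided nothing because 7 genes had exactly 1 such probe set. The genes themselves were picked with the levels in the 4 conditions known. Saa1 had none: its only probe set is shared with Saa2 in the table, so no level is given for Saa1.

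RNA of whole mouse lung was hybridised to 8 Affymetrix Mouse Gene 1.0 ST arrays, 2 for each of 4 conditions, and every array held the pooled RNA of 3 mice. CCSP-p52 mice carry a rtTA and a tTS under the CCSP promoter, which is active in airway epithelium, together with a FLAG-tagged p52 under tet operators, so that doxycycline (dox) switches the transgene on. The 4 conditions were CCSP-p52 mice on dox given LPS into the trachea, WT mice on dox given LPS, CCSP-p52 mice on dox alone and WT mice on dox alone. WT mice were littermates without the genotype. By the cross in the study's methods, with 1 parent homozygous for the rtTA, every littermate would inherit a copy of it. The labels do not state this, so a control for rtTA alone is not certain, and none for tTS alone can be assumed. All mice were FVB, 8 to 12 weeks old and of both sexes, all drank 2 g/L dox with 2% sucrose for 1 week, and LPS was given 48 hours before the lungs were taken. p52 is the processed form of the product of Nfkb2 and acts in the non-canonical NF-κB pathway.

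The acute phase response is the change in secreted proteins that follows infection or injury. Interleukin-6 acting through STAT3, and interleukin-1 and TNF acting through NF-κB and C/EBP factors, switch its genes on in hepatocytes, and several of the same genes are also used by epithelium, macrophages and neutrophils. Their products carry lipid or heme iron, starve bacteria of iron, or bind microbes directly.

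The labelled tissue was borne out by its markers. Sftpc, the surfactant protein of alveolar type II cells, lay between 13.03 and 13.98 on the log2 scale and Scgb1a1, the club cell secretory protein, between 13.26 and 13.77, all above the 99th percentile of their arrays (12.65 to 12.79). The 10 hepatocyte markers averaged 6.53 to 6.82 per array, below the array medians of 7.48 to 7.54. Alb, the main liver plasma protein, was at 7.55 in WT dox pool 1 and between 5.58 and 5.99 elsewhere. Nfkb2 itself was at 10.20 and 10.33 in CCSP-p52 dox pools, against 9.51 and 9.58 in WT dox pools, though it is not known whether its probes read the transgene. WT LPS pool 2 stood apart by squamous epithelium and striated muscle markers, with a summed linear level of 13211 for the squamous list against 371 to 425 on the other 7 arrays. CCSP-p52 LPS pool 2 stood apart from pool 1 of its condition in lung markers: its endothelial marker sum was 21408 against 13608, its club cell sum 26654 against 14779, and its macrophage and monocyte sum 4681 against 8763. The pools of a condition correlated at r = 0.981 for CCSP-p52 LPS, 0.985 for WT LPS and 0.996 for both dox conditions.

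Saa3, the serum amyloid A that mice make outside the liver, was the member that stood out without LPS. It read 9.08 and 8.74 in CCSP-p52 dox pools, against 7.56 and 6.99 in WT dox pools. Neither WT pool reached the lower of the CCSP-p52 pools, which held for 16.1% of all probe sets. The logFC (the difference of mean log2 values) was 1.63 ± 0.22 (SE), a 3.10-fold higher level with a 95% interval of 2.16 to 4.45, and only 1 of 21218 probe sets had a higher logFC. The limma p was 0.00016 before adjustment and the Benjamini-Hochberg adjusted p over all probe sets was 1, so Saa3 passed the cut-off used here (a logFC of at least 0.41, the limit on logFC that the study set, together with an unadjusted p of at most 0.05) but no adjusted threshold. In bulk lung RNA a higher level per cell and more of the cells that make the transcript cannot be told apart.

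With LPS the order of the genotypes in Saa3 was not the same. Saa3 read 13.35 and 12.98 in CCSP-p52 LPS pools, against 13.25 and 13.23 in WT LPS pools, and the pools overlapped. The logFC between genotypes was -0.07 ± 0.22, with a 95% interval of -0.60 to 0.45. The difference between the p52 effect with LPS and that without it was itself tested and came to -1.71 ± 0.31 (limma unadjusted p = 0.00099, adjusted p = 0.91). LPS raised Saa3 in both genotypes. Its level was 19.2-fold higher in CCSP-p52 LPS than in CCSP-p52 dox lungs (95% interval 13.3 to 27.6, adjusted p = 0.0018 by limma) and 62.6-fold higher in WT LPS than in WT dox lungs (43.5 to 89.9, adjusted p = 0.00031). The dox-alone difference between CCSP-p52 and WT lungs was 27.3% of the logFC that LPS gave in WT lungs. All LPS pools read Saa3 above 99.3% of the probe sets on their array, and whether the upper end of the array's range compressed the genotype difference there was not tested.

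The RefSeq sequence just upstream of the transcription start (mouse build GRCm38.p6, minus strand, chr7:46715677-46715896) is shown for Saa3 because the gene had the highest logFC between CCSP-p52 and WT lungs of the members without LPS, and that of Lcn2 (minus strand, chr2:32387740-32387959) because it had the next highest in that state. Capitals mark matches, on either strand, to the C/EBP motif TTNNGNAA.
Saa3: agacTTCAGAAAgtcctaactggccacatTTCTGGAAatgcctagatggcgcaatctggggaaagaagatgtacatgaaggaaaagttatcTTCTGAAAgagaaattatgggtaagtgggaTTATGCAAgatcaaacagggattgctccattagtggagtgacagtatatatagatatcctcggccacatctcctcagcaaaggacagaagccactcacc
Lcn2: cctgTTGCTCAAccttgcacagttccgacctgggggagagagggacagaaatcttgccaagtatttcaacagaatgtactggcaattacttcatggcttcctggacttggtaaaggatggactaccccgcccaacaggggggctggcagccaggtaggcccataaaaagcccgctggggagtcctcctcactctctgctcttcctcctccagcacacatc
Saa3 held 4 matches between bases -250 and -1 from its start and Lcn2 1. All 6 members in the RefSeq promoter table (all but Hp and Orm1) held at least 1 match, beside 36.9% of the 32841 promoters in the table. The kappa B consensus was in none of the 6 windows and in 7.25% of all promoters, and the STAT motif TTCNNNGAA was in none of the 6 and in 7.02%. A match is a string of letters and not a bound site, and these counts say nothing of sites elsewhere.

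Saa2, a liver-type serum amyloid A that travels on high-density lipoprotein, had low values without LPS. It read 4.67 and 5.13 in CCSP-p52 dox pools, against 4.71 and 4.76 in WT dox pools, and the pools overlapped (logFC 0.16 ± 0.30, 95% interval -0.54 to 0.87). With LPS it read 6.91 and 7.81 in CCSP-p52 pools, against 6.78 and 7.11 in WT pools. These overlapped too, and the logFC of 0.41 ± 0.30 did not pass the cut-off (limma unadjusted p = 0.21, 95% interval -0.29 to 1.12). Every LPS pool was at least 1.66 log2 units above every dox pool. LPS raised Saa2 5.52-fold in CCSP-p52 lungs (adjusted p = 0.0078 by limma) and 4.64-fold in WT lungs (adjusted p = 0.0065). In CCSP-p52 lungs the adjusted p was 0.082 without dox pool 1 and 0.065 without dox pool 2, and in WT lungs 0.054 and 0.056. Whether this probe set also reads Saa1, a close copy, was not tested.

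How close they are is visible in the promoters of Saa1 (minus strand, chr7:46742981-46743200) and Saa2 (plus strand, chr7:46751613-46751832), printed to show the copies side by side, with the same capitals for the C/EBP motif.
Saa1: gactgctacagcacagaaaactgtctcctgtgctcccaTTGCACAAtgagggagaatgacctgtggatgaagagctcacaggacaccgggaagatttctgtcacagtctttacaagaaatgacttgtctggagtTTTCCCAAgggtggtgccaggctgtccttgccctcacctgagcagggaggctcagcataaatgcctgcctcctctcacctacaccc
Saa2: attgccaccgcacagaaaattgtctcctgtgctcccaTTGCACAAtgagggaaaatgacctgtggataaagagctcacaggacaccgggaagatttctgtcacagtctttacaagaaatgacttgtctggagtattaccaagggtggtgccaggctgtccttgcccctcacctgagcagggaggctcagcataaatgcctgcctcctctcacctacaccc
Aligned over the upstream stretch, Saa1 and Saa2 were 94.8% identical, whereas the Saa1 and Saa3 promoters were 52.5% identical. The match at TTTCCCAA in Saa1 has no counterpart match in Saa2.

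Lcn2, or lipocalin 2, binds the siderophores with which bacteria take up iron. Without LPS it read 10.63 and 10.04 in CCSP-p52 pools, against 9.96 and 9.54 in WT pools. Both CCSP-p52 pools were above both WT pools, as for 16.1% of all probe sets, by as little as the distance between 10.04 and 9.96. The logFC was 0.58 ± 0.22, a 1.50-fold higher level with an interval of 1.05 to 2.14 (limma unadjusted p = 0.03, adjusted p = 1). It passed the cut-off, and no longer did once pool 2 of the WT dox lungs or pool 1 of the CCSP-p52 dox lungs was left out, where the logFC was 0.38 and 0.29. Without pool 2 of the CCSP-p52 dox lungs it was 0.88.

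With LPS, Lcn2 read 13.68 and 13.53 in CCSP-p52 pools, against 13.83 and 13.77 in WT pools. Both CCSP-p52 pools were now the lower ones, as happened for 15.8% of all probe sets, and the logFC of -0.20 had a 95% interval of -0.71 to 0.31. The difference between the p52 effects with and without LPS was -0.78 ± 0.30 (limma unadjusted p = 0.038, adjusted p = 0.91), and -0.49 without CCSP-p52 dox pool 1. The LPS pools read Lcn2 above 99.8% to 99.9% of the probe sets on their array, and whether the upper end of the range compressed this difference was not tested. LPS raised Lcn2 9.64-fold in CCSP-p52 lungs (adjusted p = 0.0018 by limma) and 16.6-fold in WT lungs (adjusted p = 0.00097). The dox-alone difference between genotypes was 14.4% of the LPS logFC in WT lungs. Lcn2 is also a neutrophil granule protein, and of 12 measured neutrophil markers none passed the cut-off by limma between CCSP-p52 dox and WT dox lungs, where 0.716% of all probe sets did, and 3 had a positive logFC. The summed linear level of those markers was 1794 to 1819 in CCSP-p52 dox pools and 1744 to 2507 in WT dox pools, and their part in the Lcn2 difference was not tested.

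**Figure D1:**
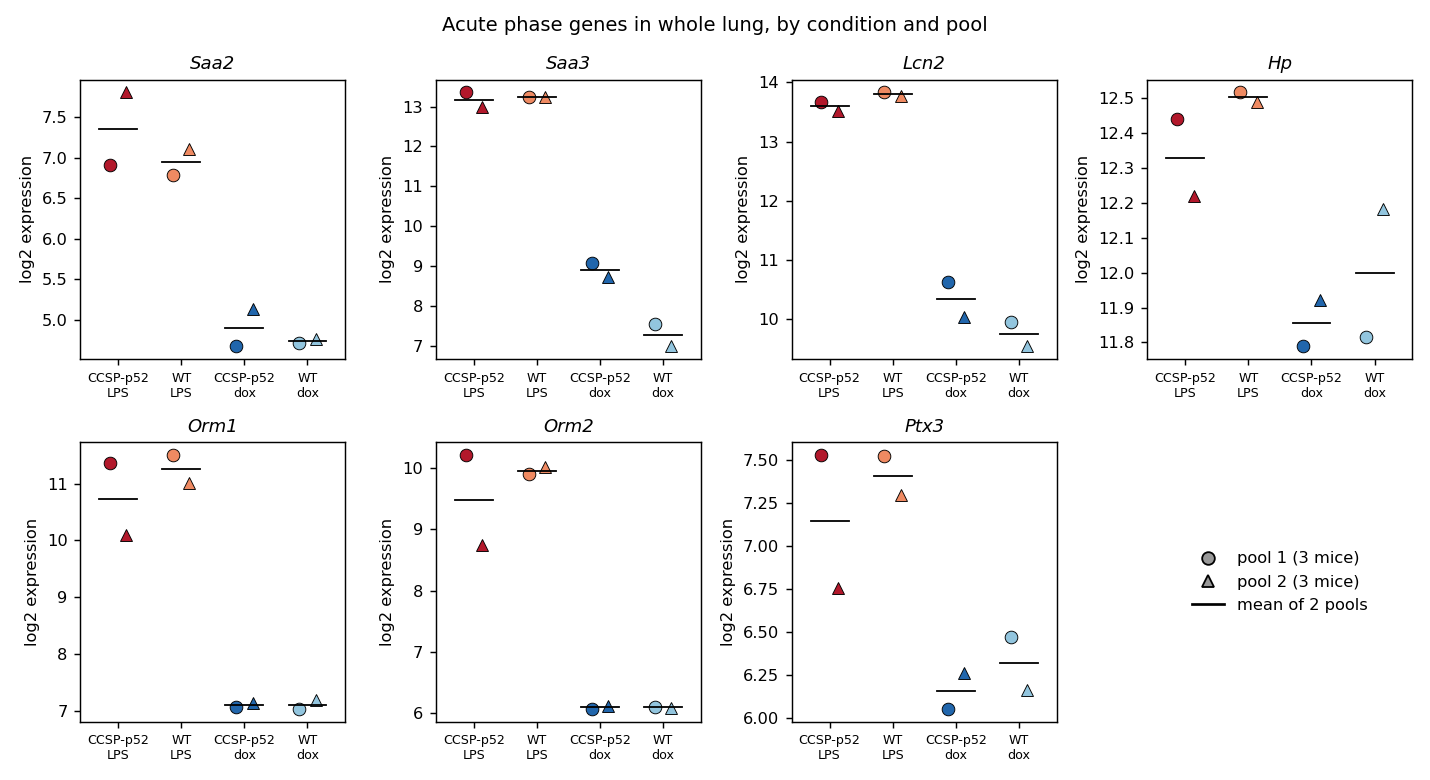
Log2 expression of the 7 measured genes (y axis, a separate scale in each panel) in the 4 conditions (x axis), with a circle for pool 1, a triangle for pool 2 and a line at their mean. Every LPS pool lies above every dox pool in each panel. Without LPS only Saa3 and Lcn2 have both CCSP-p52 pools above both WT pools, as 16.1% of all probe sets do.

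Orm1 and Orm2 encode orosomucoids, carrier glycoproteins of plasma that dampen leukocyte responses. Orm1 read 7.07 and 7.13 in CCSP-p52 dox pools, against 7.03 and 7.19 in WT dox pools. Orm2 read 6.07 and 6.12 in CCSP-p52 dox pools, against 6.10 and 6.09 in WT dox pools. The genotypes overlapped in both genes, with a logFC of -0.01 ± 0.38 for Orm1 and 0.00 ± 0.41 for Orm2. The shared spread behind these errors includes the LPS pools, which were far more variable than the dox pools for these genes.

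With LPS, Orm1 read 11.35 and 10.10 in CCSP-p52 pools, against 11.50 and 11.01 in WT pools. Orm2 read 10.21 and 8.74 in CCSP-p52 pools, against 9.90 and 10.01 in WT pools. In both genes CCSP-p52 LPS pool 1 was close to or within the WT values and pool 2 was the lowest of the 4 LPS pools. The genotype logFC was -0.53 for Orm1 (95% interval -1.42 to 0.36) and -0.48 for Orm2 (-1.44 to 0.48), and neither passed the cut-off. LPS raised Orm1 12.3-fold in CCSP-p52 lungs (adjusted p = 0.0055 by limma) and 17.7-fold in WT lungs (adjusted p = 0.003). It raised Orm2 10.4-fold in CCSP-p52 lungs (adjusted p = 0.0077) and 14.5-fold in WT lungs (adjusted p = 0.0043). In CCSP-p52 lungs both lost the call without either dox pool, with an adjusted p of 0.064 and 0.069 for Orm1 and 0.082 in both fits for Orm2. Orm1, Orm2 and Orm3 are related neighbouring genes, and whether a transcript of 1 was also read by the probes of another was not tested.

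The promoter of Orm2 (plus strand, chr4:63362299-63362448, RefSeq GRCm38.p6) is given because the orosomucoids had the largest spread between LPS pools. It held 2 C/EBP matches, in capitals, at bases -120 to -113 and -108 to -101 from the start.
Orm2: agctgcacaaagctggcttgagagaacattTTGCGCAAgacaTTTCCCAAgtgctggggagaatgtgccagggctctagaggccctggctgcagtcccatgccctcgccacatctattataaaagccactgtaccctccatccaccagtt

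Hp encodes haptoglobin, which binds free hemoglobin. It was already well expressed without LPS, at 11.79 and 11.92 in CCSP-p52 dox pools, against 11.82 and 12.18 in WT dox pools. With LPS it read 12.44 and 12.22 in CCSP-p52 pools, against 12.52 and 12.49 in WT pools. The genotypes overlapped without LPS, and with LPS both CCSP-p52 pools were below both WT pools, as for 15.8% of all probe sets. Neither logFC passed the cut-off, at -0.14 ± 0.15 without LPS and -0.17 ± 0.15 with it. The gap between the lowest LPS pool and the highest dox pool was only 0.036. Over both genotypes together, in the additive model of p52 and LPS, LPS raised Hp 1.40-fold (95% interval 1.20 to 1.64, adjusted p = 0.0062 by limma). Within a single genotype it did not pass, with an adjusted p of 0.087 in CCSP-p52 and 0.051 in WT lungs. The WT call was gained in 5 of the alternative fits over all arrays, at an adjusted p of 0.037 to 0.05, and without either CCSP-p52 LPS pool (0.032), and the CCSP-p52 call without CCSP-p52 LPS pool 2 (0.044).

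Ptx3, the long pentraxin that binds microbes and activates complement, read 6.05 and 6.26 in CCSP-p52 dox pools, against 6.47 and 6.16 in WT dox pools. With LPS it read 7.53 and 6.76 in CCSP-p52 pools, against 7.52 and 7.30 in WT pools. The genotypes overlapped in both states. The logFC was -0.16 (95% interval -0.76 to 0.44) without LPS and -0.27 (-0.86 to 0.33) with it. LPS raised Ptx3 2.05-fold in the additive model (adjusted p = 0.0025 by limma) and 2.13-fold in WT lungs alone (adjusted p = 0.027). In CCSP-p52 lungs alone the fold was 1.98 with an adjusted p of 0.056, which became 0.035 with the pool number as a block. In WT lungs the call was lost in 6 of the 8 fits that left out an array, at an adjusted p of 0.057 to 0.15.

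Counted over the measured members, 2 of 7 (Saa3 and Lcn2) passed the cut-off as higher in CCSP-p52 dox than in WT dox lungs, beside 0.556% of all probe sets. In the same comparison all 6 measured adipocyte markers had a negative logFC (median -0.42, with Adipoq past the cut-off), at a summed linear level of 746 to 944 in CCSP-p52 dox pools and 1158 to 1345 in WT dox pools. Of 6 macrophage and monocyte markers 5 had a positive logFC and none passed, with sums of 1228 to 1824 in CCSP-p52 dox pools and 1157 to 1723 in WT dox pools. The part of either cell type in the Saa3 and Lcn2 differences was not tested. With LPS 0 of 7 passed in either direction by limma, beside 2.18% of all probe sets, and all 7 had an unadjusted p above 0.05. The 6 adipocyte markers had a negative logFC with LPS too (median -0.40, with Plin1 past the cut-off), but the WT LPS pools were far apart. The summed linear level of these markers was 771 and 888 in CCSP-p52 LPS pools, between 703 in WT LPS pool 1 and 1830 in WT LPS pool 2. In the additive model 1 of 7, Saa3, passed as higher in CCSP-p52 (logFC 0.78 ± 0.33, limma unadjusted p = 0.046), beside 0.245% of probe sets, and it did not pass without any 1 of the dox pools (0.49 without WT dox pool 2). The p52 effect passed the cut-off as lower with LPS than without it in 2 of 7, Saa3 and Lcn2, beside 2.3% of probe sets. Only 1 of 7, Saa2, had a positive difference, and the others were negative without passing. No p52 comparison reached an adjusted p under 0.05 for any member by limma. Over all probe sets that threshold was passed by 0 without LPS, by 0 with LPS and by 0 for the difference between them. For p52 in the additive model 1 probe set passed it. An unadjusted limma p under 0.05 was held by 361 probe sets (1.7%) without LPS and 1480 (6.98%) with LPS. For the difference 1069 (5.04%) held it, and for p52 in the additive model 481 (2.27%).

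The LPS effect passed the adjusted threshold as higher in 5 of 7 members in CCSP-p52 lungs, beside 4.31% of probe sets (915, or 1590 with the pool number as a block), and in 6 of 7 in WT lungs, beside 7.98%. In the additive model it did in 7 of 7, beside 13.5% (2857 higher and 4289 lower over all probe sets, or 3563 and 3575 after each array was centred on its median). The logFC was 5.11 for Saa3, 3.88 for Orm1, 3.66 for Lcn2, 3.62 for Orm2, 2.34 for Saa2, 1.04 for Ptx3 and 0.49 for Hp. All LPS pools were above all dox pools in 7 of 7 members, beside 15.3% of probe sets. The order of these logFC within the array does not order the transcripts' amounts. Without WT LPS pool 2, which held the squamous and muscle markers, 0 of 7 members passed between genotypes with LPS, beside 2.96% of all probe sets in that fit, and 5 of 7 passed as raised by LPS in WT lungs, beside 4.7%. The LPS comparisons and the genotype comparisons share arrays. The exact permutation test over 2 pools against 2 cannot go below p = 0.33, so no call rests on it.

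**Figure D2:**
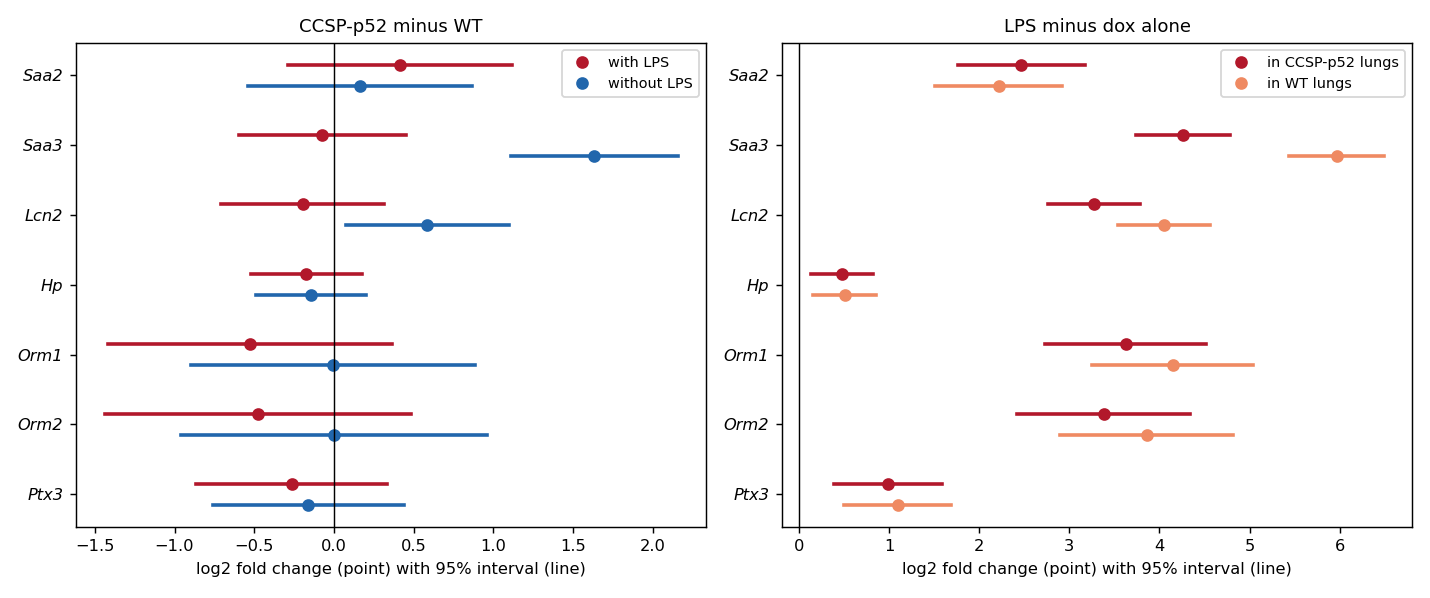
Log2 fold change of each measured gene with its 95% interval, from the 4-group limma fit: CCSP-p52 minus WT with and without LPS (left), and LPS minus dox alone in CCSP-p52 and in WT lungs (right). On the left only the Saa3 and Lcn2 intervals without LPS leave out 0, and on the right all 14 intervals lie above 0.

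For Saa2, Orm1, Orm2 and Ptx3 the pools of CCSP-p52 LPS lungs differed more than those of any other condition, whereas the pools of Saa3, Lcn2 and Hp differed more in at least 1 of the dox conditions. In CCSP-p52 LPS lungs pool 2 minus pool 1 was -1.47 for Orm2, -1.26 for Orm1, -0.77 for Ptx3, -0.37 for Saa3, -0.22 for Hp and -0.15 for Lcn2. Saa2 went the other way, by 0.89. Of these, Orm1, Orm2 and Saa2 exceeded the 95th percentile of absolute pool differences over all probe sets in that condition (0.888), and that percentile was 0.564 for WT LPS, 0.364 for CCSP-p52 dox and 0.368 for WT dox. In that same pool 2 the macrophage and monocyte sum was lower and the lung marker sums higher, as given above, and their part in these values was not tested. Without CCSP-p52 LPS pool 1, 4 of 7 members passed the cut-off between genotypes with LPS, beside 14.6% of all probe sets in that fit: Saa2 at 0.86, Orm1 at -1.16, Orm2 at -1.21 and Ptx3 at -0.65. Without pool 2, Orm2 was at 0.26 and none passed. The genotype comparison with LPS therefore depended on which CCSP-p52 pool was used.

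In dox-alone lungs Saa2, Hp and Orm1 were higher in pool 2 in both genotypes, and Saa3 and Lcn2 were lower. Ptx3 went opposite ways, with pool 2 minus pool 1 at 0.21 in CCSP-p52 and -0.31 in WT lungs. Orm2 hardly differed, at 0.054 and -0.004. Saa3 was lower in pool 2 by 0.34 in CCSP-p52 and by 0.57 in WT lungs, and Lcn2 by 0.59 in CCSP-p52 and by 0.41 in WT lungs. CCSP-p52 was above WT within pool 1 and within pool 2 for both genes. Any pairing of the pools must give this order, as both CCSP-p52 dox pools were above both WT dox pools.

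**Figure D3:**
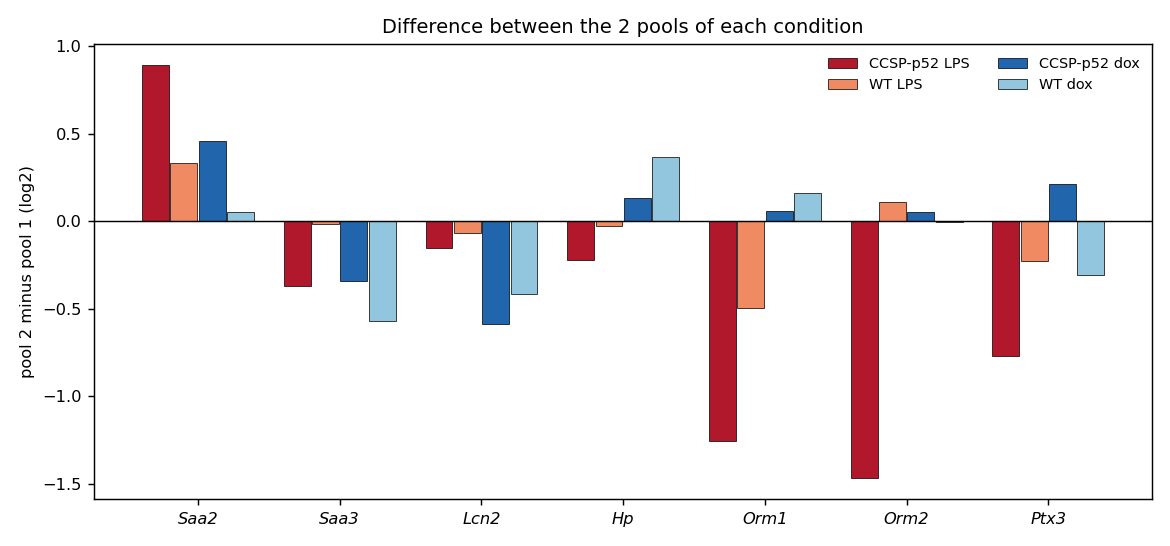
Pool 2 minus pool 1 on the log2 scale (y axis) for each measured gene (x axis) in the 4 conditions (bars from 0). The longest bars are those of Orm2 (-1.47) and Orm1 (-1.26) in CCSP-p52 LPS lungs, where Saa2 has the only positive bar (0.89).

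Across all 8 arrays the members rose and fell together: the 21 pairwise Pearson correlations ran from 0.78 to 0.996, with a median of 0.92. These arrays fall into LPS and dox sets, which sets the sign of every pair. After each condition's mean was taken off, the correlations ran from -0.87 to 0.89 and 13 of 21 were positive. Saa3 and Lcn2 stood at 0.88, Orm1 and Orm2 at 0.89, Saa2 and Orm1 at -0.87 and Saa2 and Orm2 at -0.80. With 1 free difference per condition these values describe 4 pool contrasts only.

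The 3 genes outside the list whose pattern over the 8 arrays was most like each member were ranked by Pearson r. For Saa3 they were Ly6i (r = 0.994), a Ly6 surface protein, and Acod1, the itaconate-making enzyme of macrophages, with Lrr1. Acod1 read 7.82 and 7.62 in CCSP-p52 dox pools, against 6.72 and 6.59 in WT dox pools. Ly6i read 8.25 and 8.08 in CCSP-p52 dox pools, against 7.72 and 6.99 in WT dox pools. Lrr1 read 5.68 and 5.70 in CCSP-p52 dox pools, against 5.62 and 5.47 in WT dox pools. The ranking used these same dox pools, so a difference like that of Saa3 is partly built into the choice and is no separate result. For Lcn2 they were Ly6i (0.997), Ffar2 and Wfdc17. Orm1 was closest to Nos2 (0.999), Cd14 and Nampt, and Orm2 to Nampt (0.999), Sod2 and Hal. Ptx3 was closest to Xcl1 (0.992), Saa2 to Slc7a6 (0.988) and Hp to Ndufa12 (0.988).

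Other positive acute phase genes gave a mixed picture. Of 22 measured out of 26 listed, 14 were raised and 1 lowered by LPS, beside 13.5% and 20.2% of all probe sets (additive model, adjusted limma threshold). The 22 had a median logFC of 1.04, against 0.0073 over all probe sets. Those raised included Cfb, complement factor B, at 3.87, the metal-binding metallothioneins Mt2 at 3.33 and Mt1 at 2.57, the metalloreductase Steap4 at 2.97, Lrg1, a leucine-rich glycoprotein, at 2.63 and the zinc carrier Slc39a14 at 2.08. Genes of plasma proteins that the liver makes were found on both sides of the threshold. Saa4 at 1.86, the heme carrier Hpx at 1.36, Itih4 at 1.33 and the LPS-binding protein Lbp at 0.95 passed, and Crp at 0.01, Apcs at 0.03, Fga at 0.04 and Fgb at 0.10 did not. Hamp, the iron hormone hepcidin, fell by 1.94 (adjusted p = 0.0021). Of 8 negative acute phase genes 1 passed as lowered, beside 20.2% of all probe sets. It was Rbp4, the retinol carrier, which fell by 0.63 (limma adjusted p = 0.0062).

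In the p52 comparison without LPS, 1 of these 22 passed the cut-off as higher and 1 as lower, lower calls being 0.16% of all probe sets. Mt2 read 10.28 and 10.33 in CCSP-p52 dox pools, against 9.74 and 9.74 in WT dox pools (logFC 0.56 ± 0.09, limma unadjusted p = 0.00035). Hamp read 7.12 and 7.40 in CCSP-p52 dox pools, against 8.20 and 8.39 in WT dox pools (logFC -1.03 ± 0.35, limma unadjusted p = 0.023). Mt2 had both CCSP-p52 dox pools above both WT dox pools, as 16.1% of all probe sets did. Hamp did not pass without either WT dox pool or without CCSP-p52 dox pool 1. The adjusted p was 1 for both.

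With LPS 2 of the 22 passed, both lower in CCSP-p52, beside 1.09% of probe sets. Saa4, the serum amyloid A that is made without a stimulus in liver, read 7.34 and 6.26 in CCSP-p52 LPS pools, against 8.45 and 7.80 in WT LPS pools. Its logFC was -1.33 ± 0.36 (limma unadjusted p = 0.0079, adjusted p = 0.69). Both CCSP-p52 LPS pools were below both WT LPS pools, as for 15.8% of all probe sets. Itih4, a hyaluronan-binding inhibitor heavy chain, read 10.76 and 10.63 in CCSP-p52 LPS pools, against 11.57 and 11.05 in WT LPS pools (logFC -0.62 ± 0.23, limma unadjusted p = 0.032). Saa4 lost its call without WT LPS pool 1, where the logFC was -1.01, and stood at -0.79 without CCSP-p52 LPS pool 2. Itih4 was called only with all pools or without WT LPS pool 2, among the settings that leave out 1 LPS pool.

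Upstream of the members, 12 of 17 measured inducing cytokines and receptors rose with LPS and 1 fell (additive model, adjusted). Over all probe sets 13.5% rose and 20.2% fell. Il1a, Il1b, Tnf and Il6, the main inducers of the acute phase response, had logFC of 4.46, 3.86, 3.81 and 3.81. Il6 read 8.73 and 6.73 in CCSP-p52 LPS pools, against 9.41 and 8.09 in WT LPS pools, and lay between 4.32 and 4.54 in all dox pools. Tnf read 11.59 and 9.77 in CCSP-p52 LPS pools, against 11.88 and 11.01 in WT LPS pools. For both genes CCSP-p52 LPS pool 2 was the lowest LPS pool, as for 6 of the 7 members. Il6st, the shared signalling chain of the interleukin-6 receptor, fell by 0.34 with LPS, a call that among the fits leaving out 1 array was kept only without CCSP-p52 LPS pool 2. That of Lif, a cytokine of the interleukin-6 family counted as raised, was lost in 6 of those 8 fits. None of the 17 passed between CCSP-p52 and WT without LPS, beside 0.716% of all probe sets. With LPS only Il17a did (logFC -0.49, limma unadjusted p = 0.0045), beside 2.18% of all probe sets. Its logFC was -0.35 without WT LPS pool 1, short of the cut-off.

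Among 13 measured transcription factors and feedback genes, 10 rose with LPS, beside 13.5% of all probe sets. Socs3, the STAT3 feedback inhibitor, rose by 1.92 on the log2 scale, and the NF-κB cofactors Bcl3 by 1.71 and Nfkbiz by 1.57. Cebpb rose by 1.17 and Stat3 by 0.54. The calls of Rel and Cebpd, also counted, were lost in 5 and 4 of the 8 fits that left out an array. Between genotypes without LPS only Nfkb2 passed (logFC 0.72 ± 0.23, limma unadjusted p = 0.019), beside 0.716% of all probe sets. Nfkb2 did not pass without either WT dox pool or without CCSP-p52 dox pool 2. Of 12 measured receptors and binding partners of the members, 5 rose and 4 fell with LPS, beside 13.5% and 20.2% of all probe sets. Tlr2, a receptor of serum amyloid A, rose by 2.63, Selp (P-selectin), which binds Ptx3, by 2.28, and C1qa, another partner of Ptx3, by 1.13. Slc22a17, a lipocalin 2 receptor, fell by 0.57, and the serum amyloid A scavenger receptors Scarb1 and Cd36 fell by 0.51 and 0.89. Lrp2, another lipocalin 2 receptor, fell by 0.78, a call lost in 5 of the 8 fits that left out an array. None of the 12 passed between genotypes in either state, beside 0.716% of all probe sets without LPS and 2.18% with it.

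**Figure D4:**
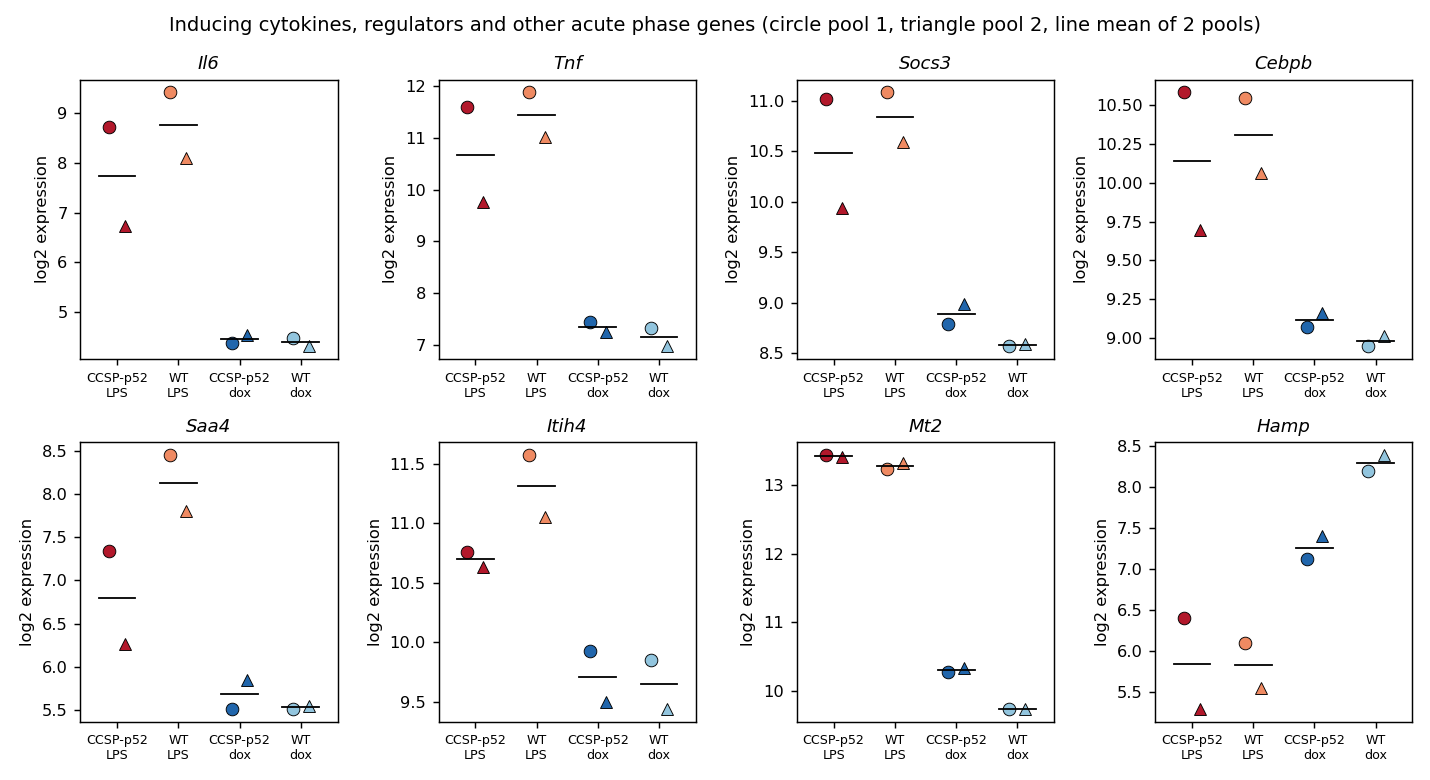
Log2 expression (y axis, a separate scale in each panel) of 2 inducing cytokines, 2 regulators and 4 other acute phase genes in the 4 conditions (x axis), with a circle for pool 1, a triangle for pool 2 and a line at their mean. Il6 and Tnf are lowest among LPS pools in CCSP-p52 pool 2, and Hamp is lower in both CCSP-p52 dox pools (7.12 and 7.40) than in both WT dox pools (8.20 and 8.39).

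Neutrophil markers moved with LPS as the members did: 10 of 12 were raised (additive model, adjusted), with a median logFC of 3.16, and their summed linear level was 16111 to 21693 in CCSP-p52 LPS pools, 16651 to 23671 in WT LPS pools, 1794 to 1819 in CCSP-p52 dox pools and 1744 to 2507 in WT dox pools. Macrophage and monocyte markers moved too, with 5 of 6 raised, a median logFC of 1.78 and sums of 4681 to 8763 in CCSP-p52 LPS pools, 6830 to 8796 in WT LPS pools, 1228 to 1824 in CCSP-p52 dox pools and 1157 to 1723 in WT dox pools. The part of either cell type in the LPS effect on the members was not tested. Hepatocyte markers did not move with LPS in the same way: 1 of 10 was raised (Cps1, by 0.30), and their sums stayed between 1037 and 1295 on all 8 arrays. For each of these marker lists the share to set beside it is the 13.5% of all probe sets that were raised, and 1 of 10 is near that share.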

How the data were processed

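The deposited log2 values had been made by the authors from Affymetrix Mouse Gene 1.0 ST arrays by robust multichip average (RMA), which equalises the distributions of the arrays. limma 3.20.8 is given as well in the processing notes of the submitters. Of 35556 probe sets, the 21218 with 1 symbol in the platform's gene table (59.7%) were tested, and 1881 with several symbols and 12457 without were not. Whether that table is of the same array version was not settled.

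Tests were run in R 4.3.3 with limma 3.58.1 (lmFit, eBayes, Benjamini-Hochberg adjustment over the tested probe sets). A 4-group model gave each pairwise effect and their difference, and an additive model gave the p52 and LPS effects over all 8 arrays. The study's methods name a linear model with both factors and do not call it additive. The study listed a logFC of 0.585 for LCN2 and 0.720 for NFKB2. These equal the 4-group effects without LPS here, whereas the additive effects were 0.194 for Lcn2 and 0.467 for Nfkb2. p52 effects were counted at a logFC of at least 0.41, the study's limit, combined here with an unadjusted p of at most 0.05, and LPS effects at an adjusted p under 0.05. Arrays have no read depth, so 2 pools per condition limit the precision, and p-values measure the spread between pools only. The main fits did not pair arrays. An alternative fit took the pool number as a block because same-numbered pools deviated together (r from 0.14 to 0.35 over 6 pairs of conditions). That pairing comes from the values alone, as no source says what a number shares. The code was tested on simulated data. Named genes are the members, list genes that passed a call or had small LPS p-values, and the 3 nearest genes of each member. Members, gene lists and markers were chosen with earlier results of these data known. Alternatives were other probe set filters, moderation, array weights, scaling, a stricter threshold (logFC of 1 for p52, adjusted p of 0.01 for LPS), the pool block, and leaving out each array.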

Additional observations from a re-analysis of the deposited data

Results flagged for a closer look

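The p52 effect differed between lungs with and without LPS for Saa3 and Lcn2, by a test of the difference itself that passed the unadjusted cut-off and no adjusted threshold. For Saa3 the effect with LPS minus that without was -1.71 ± 0.31 (limma unadjusted p = 0.00099, adjusted p = 0.91), with a range of -1.99 to -1.42 as each array was left out, all past the cut-off. For Lcn2 it was -0.782 ± 0.30 (limma unadjusted p = 0.038, adjusted p = 0.91), with a range of -1.08 to -0.49, and it lost its call in 5 of these 8 fits (without CCSP-p52 LPS pool 2, either WT LPS pool, CCSP-p52 dox pool 1 or WT dox pool 2). With 2 pools in each condition no pool could be tested as standing apart from its group.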

How the results depend on the processing

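The number of members past the cut-off for p52 without LPS was 2, and 1 at the stricter threshold. For p52 in the additive model it was 1, with 0 for all probe sets, with dim probe sets left out, with median centring or at the stricter threshold, and 2 with array weights. For the difference between LPS states it was 2, and 1 with array weights, at the stricter threshold or, an alternative chosen after seeing the data, without both second LPS pools. Leaving out each array gave 1 to 2 members without LPS, 0 to 4 with LPS, 0 to 2 in the additive model, 2 to 7 for LPS in CCSP-p52 (2 without either CCSP-p52 dox pool), 4 to 7 for LPS in WT (6, or 7 with trend and robust moderation, array weights, median centring or the mean over probe sets of a gene, as Hp then passed), 7 for LPS in the additive model, and 1 to 5 for the difference (5 without CCSP-p52 LPS pool 1). A condition left with 1 pool was assumed to vary like the others. With the pool number as a block, the replicate block counts were 2, 0 and 1 for p52 without LPS, with LPS and additive, 6 for LPS in either genotype, 7 for LPS additive and 2 for the difference. The block changed no call of a member other than Ptx3 in CCSP-p52 lungs. Over all probe sets it moved the number raised by LPS in CCSP-p52 lungs to 1590, against 915 without it. Over all alternatives the number of probe sets past the threshold ran from 8 to 225 for p52 higher without LPS (118), from 13 to 1802 for p52 higher with LPS (231) and 8 to 1298 for lower (232), from 1 to 217 for p52 higher in the additive model (52), from 33 to 3105 for LPS higher in CCSP-p52 (915), from 146 to 3048 in WT (1694) and from 1566 to 4101 in the additive model (2857), and from 17 to 1459 for a lower p52 effect with LPS (487). Small effects changed sign. Without LPS, Orm2 was at -0.032 after repeated quantile normalization and Orm1 at 0.015 after median centring, and leaving out arrays gave -0.064 to 0.39 for Saa2, -0.33 to 0.040 for Hp, -0.087 to 0.073 for Orm1 and -0.027 to 0.028 for Orm2. With LPS, leaving out arrays gave -0.033 to 0.86 for Saa2, -0.26 to 0.11 for Saa3, -1.16 to 0.10 for Orm1, -1.21 to 0.26 for Orm2 and -0.65 to 0.12 for Ptx3. In the additive model it gave -0.0019 to 0.30 for Lcn2, -0.47 to 0.036 for Orm1 and -0.48 to 0.10 for Orm2. For the difference it gave -0.20 to 0.70 for Saa2, -0.21 to 0.15 for Hp, -1.15 to 0.11 for Orm1, -1.21 to 0.25 for Orm2 and -0.49 to 0.28 for Ptx3. Without both second LPS pools the p52 effect with LPS was 0.10 for Saa3, 0.31 for Orm2 and 0.0070 for Ptx3, the additive one 0.10 for Orm2, and the difference -0.032 for Saa2, 0.067 for Hp, 0.31 for Orm2 and 0.17 for Ptx3. Saa3 without LPS kept its direction and its call under every alternative, at 1.35 to 1.92 as arrays were left out. The causes of these changes were not tested. Saa2 was among the dim probe sets.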
